A study of Rattus norvegicus with 20 samples.

Results

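The comparison set liver RNA of 5 rats fed the dithiolethione D3T against that of 5 rats fed the control diet, which makes 10 of the 20 arrays of the series. Members were chosen by the diet in each array's title alone. All 20 animals were female Sprague Dawley rats kept on their diet for 24 days, with 1 liver and 1 array per rat. Controls ate a Harlan Teklad mash diet with no added compound, and the D3T group ate the same diet with 600 mg of 3H-1,2-dithiole-3-thione per kg. The other groups received 1650 mg per kg of 5,6-benzoflavone (BNF) or 500 mg per kg of the 4-methyl-5-pyrazinyl derivative of D3T (oltipraz, OLT). They show where D3T differs. Their arrays also entered the filter, the choice of probe set per gene and the estimate of spread behind each test. The labels give no age, no pairing of animals and no cell sorting, so each value is a mean over all cells of a piece of whole liver, in which fewer cells of a type and less RNA per cell cannot be told apart.

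D3T is a small sulfur ring compound long used to raise the liver's own defences against reactive chemicals. In its textbook action it modifies cysteines of Keap1, the adaptor that marks the transcription factor Nrf2 for degradation; Nrf2 then accumulates and binds antioxidant response elements beside genes of glutathione conjugation, carbonyl and quinone reduction and NADPH supply. In rat liver the class is known above all for inducing enzymes that clear aflatoxin metabolites. BNF, by contrast, is a ligand of the aryl hydrocarbon receptor, whose classical targets are the Cyp1 genes.

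All values are log2 expression of probe sets on Affymetrix arrays, between 0.083 and 16.46, where a difference of 1 is a doubling and levels under about 4 lie near the background that the GCRMA summary leaves. Of 31042 probe sets, 12947 passed the filter (log2 above 4, 5 arrays or more of the 20) and were tested, and 7837 genes were represented by 1 of them each. Liver identity was plain: albumin stood at 16.15 ± 0.21 (mean ± SD, n = 5) under control and 16.30 ± 0.10 under D3T. The array labelled D3T 5 lay nearer to OLT than to its own group. Over tested probe sets it correlated on average at 0.968 with D3T 1 to 4 and at 0.979 with OLT, and its closest array was OLT 2 (r = 0.989). Its mean with its own group was not the lowest, since D3T 4 stood at 0.963 (0.956 with OLT). OLT 1 was closest to D3T 2 (0.979). D3T 1 was closest to OLT 5 (0.977), although its mean correlation with its own group (0.965) exceeded that with OLT (0.961). Counts of genes called are therefore given for all genes and for the lists described without D3T 5 as well, and D3T 5 means the array so labelled throughout. Some members, among them glutathione transferases, aldo-keto reductases, P450 genes and metallothioneins, belong to families of similar sequence; probe sets annotated to several genes were left out, but cross-hybridization between family members was not tested.

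Under D3T 439 genes rose and 584 fell, so that 5.6% of the tested genes rose, 7.45% fell and 13.1% changed in either direction (limma, Benjamini-Hochberg adjusted p under 0.05). Of these, 123 rose and 212 fell by at least 2-fold. Leaving out D3T 5 gave 471 rising (6.01%) and 577 falling genes (7.36%); 395 rose and 503 fell in both fits, and 0 genes were called in opposite directions. Leaving out 1 array moved the falling count by over 1.5 times in 3 fits, to 374 without control 5, 381 without D3T 2 and 373 without D3T 3; with D3T 5 and D3T 3 both left out, 305 genes rose and 375 fell. All D3T arrays lay above all control arrays in 413 genes (5.27%) and below them in 512 (6.53%). The list counts below are to be read against these shares and the 5.6% and 7.45% of genes called. No list was tested against them. The median difference over all genes was -0.020. Centring each array on its median moved that median to 0.13 and the calls to 896 rising and 466 falling genes, and quantile normalization gave 689 and 610, so small differences near 0 depend on the scaling, while the groups described as rising or falling below kept their sign under centring and quantile normalization unless stated.

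**Figure D1:**
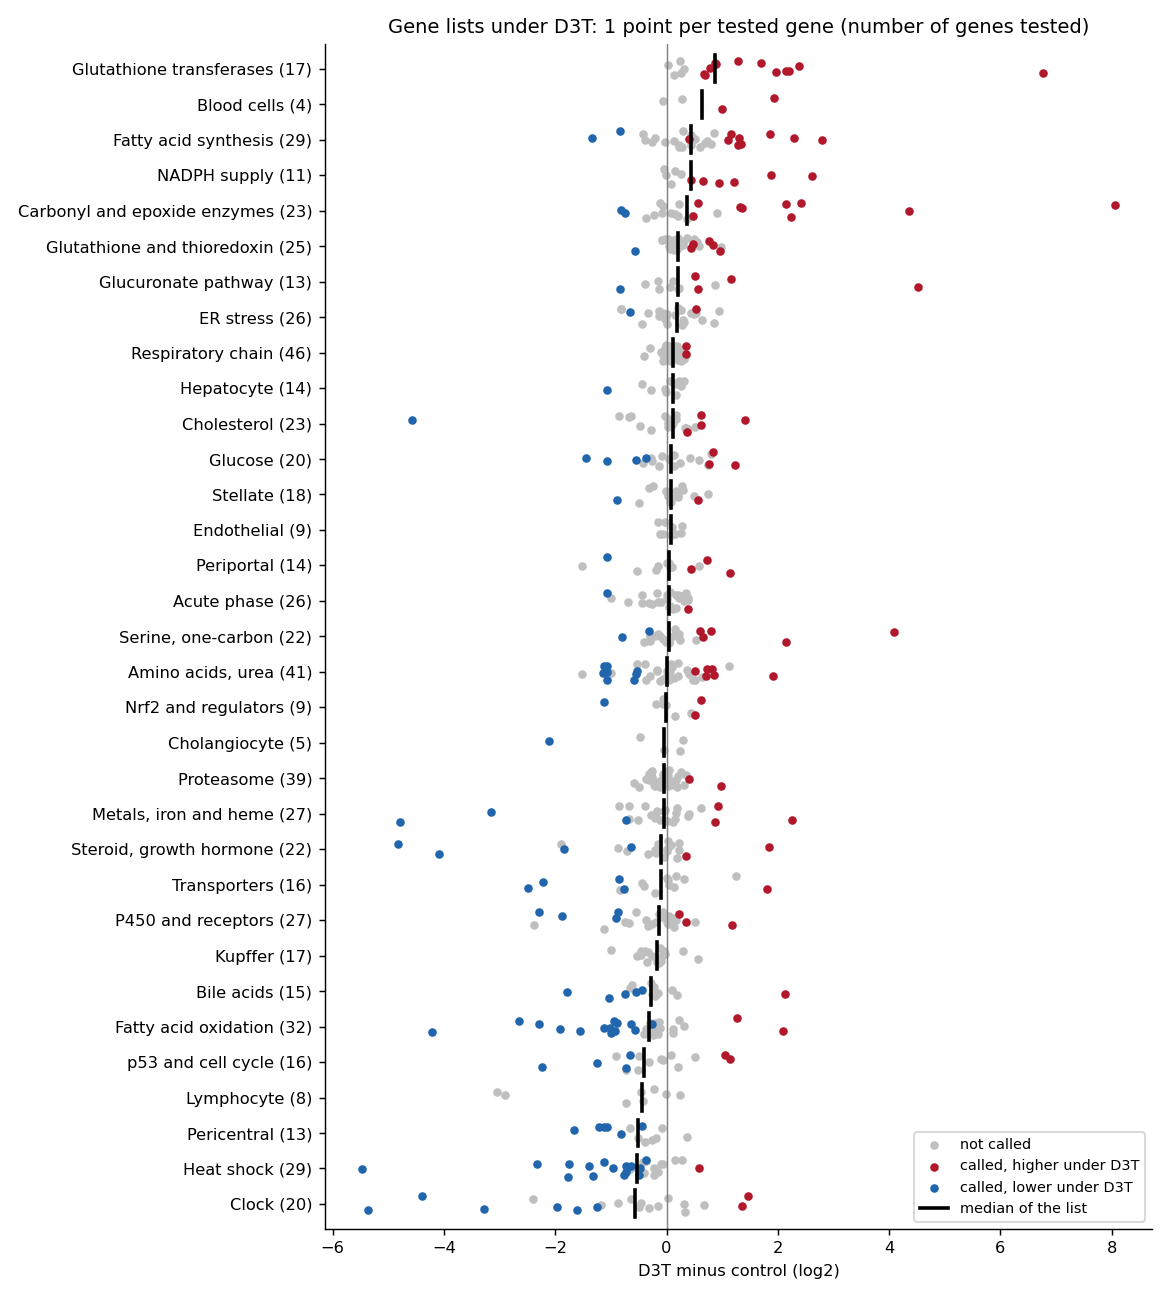
Difference between D3T and control (log2, horizontal axis) for each tested gene of 33 gene lists (rows, ordered by the list's median, with the number of tested genes in parentheses). Red points rose and blue points fell at an adjusted p under 0.05, grey points were not called, and black bars are list medians. The glutathione transferases have the highest median (0.86), while the clock (-0.56) and heat shock (-0.52) lists have the lowest.

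The reductases and hydrolases that disarm carbonyls, quinones and epoxides included Akr1b8, the gene with the largest increase of all called genes. Of 23 tested members 9 rose and 2 fell (10 and 2 without D3T 5), and the median difference was 0.37. Akr7a3, the aflatoxin aldehyde reductase, stood at 9.53, 8.54, 8.95, 9.24 and 9.47 in controls 1 to 5 and at 13.88, 14.29, 14.17, 13.82 and 11.35 in D3T 1 to 5. Every D3T array was above every control array, and D3T 5 was the lowest of its group. The gene rose by 4.36 (SE 0.61, limma adjusted p = 0.000161), or 20.5-fold, and the difference was 4.89 without D3T 5. Akr1b8, an aldose reductase family member, was near background in the controls, at 3.97, 3.85, 4.26, 4.30 and 3.82. Under D3T it read 13.61, 13.82, 13.86, 13.42 and 5.77. The first 4 arrays were among the strong signals of the chip and D3T 5 was less than 2 units above the highest control, so that the SD within the group was 3.54 and the difference was 8.06 (SE 1.54, adjusted p = 0.00229) with D3T 5 and 9.64 without it. Its relative Akr1b10 rose by 1.32 from a level near background, with 4.32 in D3T 5 inside the range of the controls.

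Nqo1, the quinone reductase that serves as the textbook Nrf2 reporter, read 9.0, 8.18, 7.52, 8.78 and 8.74 in the controls and 11.51, 10.98, 10.96, 11.003 and 9.84 under D3T. The groups did not overlap, and Nqo1 rose by 2.41 (SE 0.38, adjusted p = 0.000390). Ephx1, the microsomal epoxide hydrolase, had tight groups at 11.98 ± 0.22 and 14.22 ± 0.38 and rose by 2.24 (SE 0.24, adjusted p = 1.26e-05). Aldh1l1, the formyltetrahydrofolate dehydrogenase, rose by 2.15 and the retinaldehyde dehydrogenase Aldh1a1 by 1.35. Akr7a2, the sister enzyme of Akr7a3, rose by only 0.48 with an adjusted p of 0.0494, a call that did not hold in 12 of 20 other settings. The 2 members that fell were Aldh3a2, the fatty aldehyde dehydrogenase (-0.81), and Akr1c14, a hydroxysteroid dehydrogenase (-0.75).

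**Figure D2:**
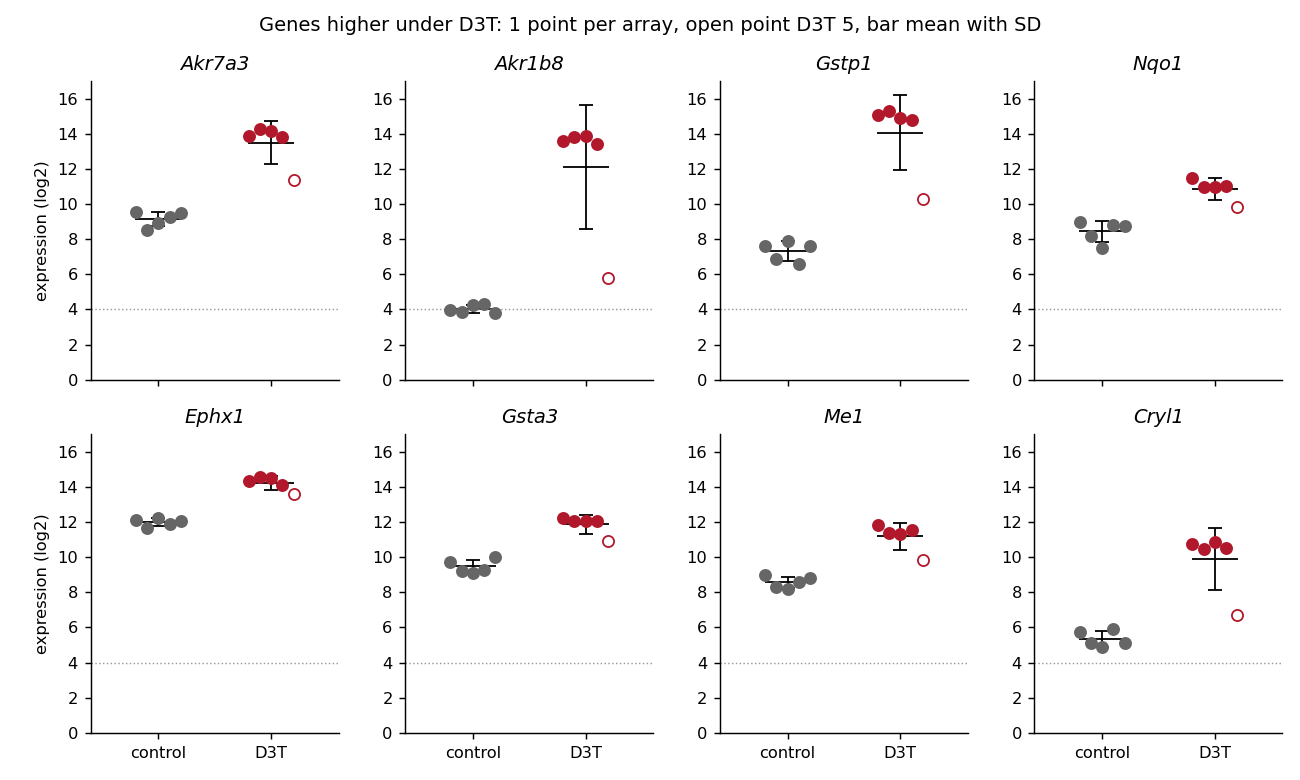
Log2 expression (vertical axis) of 8 genes that rose, 1 point per array, for the 5 control and the 5 D3T arrays; the open point is D3T 5, the bar is the mean with its SD and the dotted line marks the filter value of 4. D3T 5 is the lowest D3T array in Akr7a3, Akr1b8, Gstp1, Nqo1, Gsta3, Me1 and Cryl1, and lies above all controls in each of them, for example in Akr7a3 (11.35) and Gstp1 (10.30).

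Most of the glutathione transferases, which couple electrophiles to glutathione, rose. 12 of 17 tested members rose and 0 fell, with and without D3T 5. Over all genes 5.6% rose and 7.45% fell with D3T 5 kept. The median difference was 0.86 (0.94 without D3T 5), against -0.020 over all genes. In 10 members the D3T arrays lay wholly above the controls, as in 5.27% of all genes. Gstp1, the pi class enzyme that is sparse in normal rat liver, stood at 7.59, 6.88, 7.89, 6.57 and 7.64 in the controls and at 15.09, 15.28, 14.89, 14.79 and 10.30 under D3T. Its D3T 5 value was again above every control yet far below the other D3T arrays, and the difference was 6.76 (SE 1.01, adjusted p = 0.000271) or 7.70 without D3T 5. Gsta3, an alpha class enzyme, read 9.74, 9.24, 9.12, 9.28 and 10.001 in the controls and 12.22, 12.04, 12.08, 12.07 and 10.90 under D3T. It rose by 2.38 (SE 0.32, adjusted p = 9.71e-05). The theta class gene Gstt3 rose by 2.20 and Gstt1 by 1.96, the mu class genes Gstm4 by 1.70 and Gstm1 by 1.28, and the membrane-bound Mgst2 by 2.14. Gsta1, one of the strongest signals of the liver at 14.22 ± 0.066 in the controls, still rose by 0.68 (adjusted p = 3.95e-05). Gsta2 and Gsta5 had no tested probe set of their own and were not analysed here.

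Because these genes rose together, their promoters were searched for the core of the antioxidant response element, TGACNNNGC or its reverse complement, on either strand, in the 250 bases before the gene start (RefSeq, GRCr8). Of the 32 reductase, transferase, glutathione, thioredoxin and NADPH genes that rose, 30 had a promoter in the table and 5 (16.7%) held the core; it was in 12.8% of the 6604 tested genes with a promoter and in 10.2% of all 27457 promoters. Of all rising genes with a promoter, 46 of 382 held the core, a lower share than among the tested genes. Of the falling genes with a promoter, 77 of 493 (15.6%) held it. The core was thus no more common among all rising genes than among falling ones, and differences between these shares were not tested. The letters of the core were not in this window in Akr7a3, Akr1b8 or Nqo1. Printed here are the 250 upstream bases of the 3 rising members whose match lies upstream among those described most fully, with the match in capitals. The match starts at base -61 from the gene start in Gstp1 (chr1:210769706-210769955, minus strand), at -167 in Me1 (chr8:96540245-96540494, minus strand) and at -17 in Gsta3 (chr9:31154739-31154988, plus strand); in Gstp1 and Me1 the match also contains the AP-1 letters TGACTCA.
Gstp1: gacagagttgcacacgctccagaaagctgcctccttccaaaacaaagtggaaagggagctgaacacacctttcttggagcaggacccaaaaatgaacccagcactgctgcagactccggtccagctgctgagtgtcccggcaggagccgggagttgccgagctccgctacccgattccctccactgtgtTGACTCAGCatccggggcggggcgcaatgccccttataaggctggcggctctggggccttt
Me1: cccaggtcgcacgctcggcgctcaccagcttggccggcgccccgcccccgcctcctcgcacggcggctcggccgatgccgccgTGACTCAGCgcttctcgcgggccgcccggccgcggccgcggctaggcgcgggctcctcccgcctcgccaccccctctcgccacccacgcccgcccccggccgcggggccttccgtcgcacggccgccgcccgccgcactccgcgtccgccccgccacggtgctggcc
Gsta3: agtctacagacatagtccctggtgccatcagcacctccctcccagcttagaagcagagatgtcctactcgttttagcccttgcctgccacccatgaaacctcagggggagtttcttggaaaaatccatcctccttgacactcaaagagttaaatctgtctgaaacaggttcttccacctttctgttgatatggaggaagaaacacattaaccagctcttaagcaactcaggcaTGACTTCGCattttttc

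Glutathione and thioredoxin chemistry recycles the thiols that the conjugating enzymes use. 5 of 25 tested genes of it rose and 1 fell (8 and 1 without D3T 5), with a median of 0.21. Gss, glutathione synthetase, rose by 0.95 (SE 0.14, adjusted p = 0.000231), from 8.49 ± 0.14 to 9.44 ± 0.14. Thioredoxin (Txn1) rose by 0.77 (adjusted p = 0.000390), thioredoxin reductase (Txnrd1) by 0.84 (adjusted p = 0.0463), peroxiredoxin Prdx2 by 0.48 and catalase (Cat) by 0.44. The Txnrd1 call did not hold in 10 of 20 other settings. The rate-limiting glutamate-cysteine ligase was not called in either subunit: the catalytic Gclc differed by 0.30 (95% interval -0.085 to 0.68) and the modifier Gclm by 0.58 (-0.17 to 1.33). Glutathione reductase (Gsr) differed by 0.97 (adjusted p = 0.110) with D3T 5 and by 1.30 without it (adjusted p = 0.0202), where it passed. With D3T 5 kept, Gsr also passed after centring (1.12, limma adjusted p = 0.0311) and after quantile normalization (1.09, limma adjusted p = 0.0386). Glrx, glutaredoxin, was the member that fell (-0.56, adjusted p = 0.00911).

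Among Nrf2 itself and its partners, 2 of 9 rose and 1 fell in both fits, with 1 rising without control 2. Nfe2l2, the gene of Nrf2, stood at 11.86, 11.79, 11.66, 11.66 and 11.38 in the controls and 10.84, 9.93, 10.31, 10.84 and 10.84 under D3T. All D3T arrays were below all controls, and the transcript fell by 1.11 (SE 0.22, adjusted p = 0.00306). Keap1 rose by 0.63 (adjusted p = 0.00361), but its second probe set was not called, and the mean of both gave 0.21 (adjusted p = 0.637). Sqstm1, which encodes the Keap1-binding autophagy receptor p62, rose by 0.51 (adjusted p = 0.0188). Of other textbook targets, Srxn1, sulfiredoxin, differed by 0.49 (adjusted p = 0.552), with 6.25 in D3T 5 and 8.94, 9.27, 8.79 and 8.95 in D3T 1 to 4. Heme oxygenase Hmox1 differed by -0.86 (adjusted p = 0.170), and Osgin1, a stress gene, rose by 2.43 (adjusted p = 0.000498).

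NADPH, the reductant that these enzymes spend, comes from malic enzyme and the pentose phosphate pathway, and 6 of 11 tested genes of its supply rose while 0 fell, in both fits; the median was 0.44. Me1, malic enzyme, read 8.97, 8.29, 8.19, 8.60 and 8.80 in the controls and 11.86, 11.35, 11.30, 11.56 and 9.84 under D3T. It rose by 2.61 (SE 0.35, adjusted p = 0.000112). The pentose phosphate genes Pgd, Tkt and Taldo1 rose by 1.89, 1.21 and 0.94, and the groups did not overlap in any of them. Idh1, the cytosolic NADP-linked isocitrate dehydrogenase, rose by 0.44.

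The glucuronate pathway makes the sugar donor for glucuronidation and feeds pentoses back through xylulose. 4 of 13 tested members rose and 1 fell (5 and 1 without D3T 5), and 2 fell without control 4 or D3T 1. Cryl1, a gulonate dehydrogenase of that route, showed the third largest increase of all called genes. Its values were 5.71, 5.13, 4.86, 5.91 and 5.14 in the controls and 10.76, 10.44, 10.89, 10.54 and 6.73 under D3T. It rose by 4.52 (SE 0.72, adjusted p = 0.000484), and by 5.31 without D3T 5. Ugdh, which oxidises UDP-glucose to UDP-glucuronate, rose by 1.15, Dcxr, the xylulose reductase, by 0.57, and the glucuronosyltransferase Ugt2b1 by 0.52. Miox, the myo-inositol oxygenase that forms glucuronate from inositol, fell by 0.83 (adjusted p = 0.00234).

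Serine and one-carbon genes rose in 5 of 22 cases and fell in 2, in both fits; leaving out any single array other than control 4 or D3T 5 left 1 falling gene. Psat1, phosphoserine aminotransferase, was under the filter value in every control, at 2.82, 2.39, 2.80, 2.20 and 2.39, and reached 6.71, 6.93, 8.26, 7.05 and 4.05 under D3T. The difference was 4.08 (SE 0.66, adjusted p = 0.000541) and rests on a control level at background. Shmt2, mitochondrial serine hydroxymethyltransferase, rose by 0.60, and Cth, cystathionine gamma-lyase, by 0.80 (adjusted p = 0.0366, not called in 10 of 20 other settings). Mat2a, a methionine adenosyltransferase, fell by 0.79. Phgdh was not tested. Of 41 genes of amino acid breakdown and the urea cycle 6 rose and 8 fell (8 and 9 without D3T 5). The urea cycle genes Otc and Asl moved apart, with Otc rising by 0.85 and Asl falling by 1.06 (adjusted p = 3.45e-05). Dao, D-amino acid oxidase, rose by 1.91 (adjusted p = 0.0367, not called in 7 of 20 other settings), and the aminotransferases Gpt2, Oat and Tat fell by 1.14, 1.12 and 1.06.

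Phase I genes were called in both directions. Of 27 tested P450 genes and their receptors 3 rose and 4 fell (3 and 6 without D3T 5), and 1 rose without D3T 2. Over all genes 5.6% rose and 7.45% fell, and the list was not tested against these shares. Por, the reductase that passes electrons to all microsomal P450 enzymes, stood at 11.94, 12.16, 12.36, 12.37 and 13.002 in the controls and 10.10, 10.24, 10.46, 10.72 and 10.89 under D3T. The groups did not overlap and Por fell by 1.88 (SE 0.22, adjusted p = 2.54e-05). Cyp3a9 fell by 2.30 (adjusted p = 0.00167), Cyp3a23-3a1 by 0.87, and Nr1i2, the pregnane X receptor that controls Cyp3a genes, by 0.90 (adjusted p = 0.000469). Cyp2c22, a retinoic acid hydroxylase, rose by 1.17 (adjusted p = 0.00157). Cyp1a1 differed by -0.06 (95% interval -2.17 to 2.05; 0.086 after centring) and Cyp1a2 by -0.19 (-0.57 to 0.19), neither called.

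Transporters gave 1 rising and 4 falling genes of 16, in both fits, beside 5.6% rising and 7.45% falling over all genes with D3T 5 kept. Without control 1, control 5 or D3T 2, 2 fell. Abcc4, an efflux pump of the sinusoidal membrane, rose by 1.81 (adjusted p = 0.00484) from 3.59, 3.72, 3.66, 3.87 and 4.14 in the controls to 6.37, 5.76, 6.30, 5.74 and 3.86 under D3T, with D3T 5 inside the control range. Abcg5, which exports sterols into bile, fell by 2.49 (adjusted p = 0.0110) to a mean of 2.86, below the filter value. Slc22a5, the carnitine importer, fell by 2.22 (adjusted p = 0.00358). Of the conjugate pumps, Abcc2 differed by 0.043 (-0.24 to 0.33) and Abcc3 by 1.26 (0.048 to 2.46), neither called. Without D3T 4 the Abcc3 difference was 1.97 (adjusted p = 0.00258), which passed.

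Among the genes of fatty acid oxidation and the PPARa response more fell than rose, and among those of fatty acid synthesis more rose than fell. On the oxidation side 14 of 32 tested genes fell and 2 rose (16 and 2 without D3T 5, 14 and 1 without D3T 3), with a median of -0.32. Cpt1a, the gate for fatty acid entry into mitochondria, stood at 12.17, 12.16, 12.30, 12.02 and 11.92 in the controls and 8.95, 8.62, 9.11, 10.42 and 10.20 under D3T. It fell by 2.65 (SE 0.28, adjusted p = 1.16e-05), or 6.28-fold. Vnn1, the pantetheinase much used as a PPARa reporter, had hardly any spread: 9.10, 8.90, 8.89, 8.80 and 8.70 in the controls and 4.57, 4.66, 4.79, 4.69 and 4.58 under D3T. It fell by 4.22 (SE 0.35, adjusted p = 1.23e-06), and here D3T 5 sat with its group. The isomerases of unsaturated acyl chains Ech1 and Eci1 fell by 2.30 and 1.92 (adjusted p = 2.35e-06 and 1.16e-05), both trifunctional protein genes, Hadha and Hadhb, by 0.93 and 1.01, Acadl by 0.90, Cpt2 by 0.99 and the microsomal omega-hydroxylase Cyp4a1 by 0.94. Angptl4, a lipase inhibitor, and Pdk4, the kinase that shuts pyruvate dehydrogenase, rose by 2.09 and 1.26; both are also known PPARa targets.

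Of 29 genes of fatty acid synthesis and esterification 9 rose and 2 fell (8 and 3 without D3T 5), with 1 falling without control 1 and 0 without control 2, D3T 2 or D3T 3. The list stood at a median of 0.44. Fasn, fatty acid synthase, read 10.44, 9.79, 10.02, 10.07 and 10.67 in the controls and 12.60, 12.60, 11.58, 12.28 and 11.28 under D3T. It rose by 1.87 (SE 0.35, adjusted p = 0.00214) with no overlap. Scd, the stearoyl-CoA desaturase, rose by 2.30 (adjusted p = 0.0135), from 11.70, 10.85, 9.57, 10.39 and 10.50 to 13.52, 13.36, 12.85, 13.55 and 11.22, and the ranges overlapped. The enzymes that supply and carboxylate acetyl-CoA followed, with Acss2 at 1.33, Acaca at 1.31 and Acly at 1.29, as did the desaturase Fads1 (1.16) and the regulator Srebf1 (1.11). Pnpla3, a lipid remodelling gene, rose by 2.80 (adjusted p = 0.0303) from background, at 8.66, 9.34, 4.08, 5.63 and 3.52 in D3T 1 to 5, a call that did not hold in 8 of 19 other settings. Elovl2, which elongates polyunsaturated acyl chains, fell by 1.34.

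Cholesterol genes rose in 4 of 23 cases and fell in 1 (3 and 2 without D3T 5). Single arrays moved the rising count, to 2 without control 1, control 2 or D3T 2 and to 1 without control 4 or D3T 3. Dhcr7, a late enzyme of the pathway, rose by 1.40 (adjusted p = 0.00116), whereas the cholesterol ester hydrolase Nceh1 fell by 4.57 (SE 0.57, adjusted p = 4.90e-05), from 9.42, 9.25, 8.69, 9.29 and 9.58 to 5.11, 3.17, 3.86, 5.38 and 5.84. All D3T values of Nceh1 were below the controls. In bile acid synthesis 5 of 15 fell and 1 rose (6 and 1 without D3T 5). Cyp8b1, the sterol hydroxylase that sets the cholic acid share, fell by 1.80 (SE 0.22, adjusted p = 5.07e-05) and the bile acyl-CoA synthetase Slc27a5 by 1.03. Nr0b2, the corepressor SHP, rose by 2.12 (adjusted p = 0.00397). Cyp7a1, the rate-limiting enzyme of the classical route, differed by -0.65 (-1.76 to 0.46) and was not called.

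Many cytosolic chaperones fell. 16 of 29 tested heat shock genes fell and 1 rose (18 and 1 without D3T 5), against 7.45% falling and 5.6% rising over all genes. The median was -0.52, and 14 members had all D3T arrays below all controls, as had 6.53% of all genes. Hspa1a, the inducible Hsp70, stood at 9.14, 10.77, 10.10, 10.84 and 10.80 in the controls and 4.30, 4.04, 6.52, 5.80 and 3.65 under D3T. The arrays did not overlap, D3T 5 was the lowest of all, and the gene fell by 5.46 (SE 0.56, adjusted p = 1.01e-05), or 44.1-fold. Several of its D3T values lay near the filter value of 4, so the size of the difference depends on the background. Without D3T 5 the difference was -5.16, against -5.80 for Noct and -5.69 for Mt2A, both described below. The small heat shock protein Hspb1 read 5.66, 6.88, 7.51, 7.22 and 7.83 in the controls and 4.26, 4.06, 5.81, 4.89 and 4.45 under D3T. It fell by 2.32 (adjusted p = 0.000469), with D3T 3 above the lowest control. Among Hsp70 cochaperones Dnajb4 fell by 1.78, Dnaja4 by 1.76, Dnajb1 by 1.39 (adjusted p = 1.93e-05) and Bag3 by 1.32. The Hsp90 gene Hsp90ab1, at 13.95 ± 0.066 in the controls, fell by 0.72 (adjusted p = 0.000349), its cochaperone Stip1 by 0.70 and the Hsp110 gene Hsph1 by 0.96. Dnajb6 was the member that rose (0.59, adjusted p = 0.0494); that count was 0 without any single array other than control 3 or D3T 5. The factor Hsf1 differed by -0.10 (0.045 after centring), not called. Hspa8 was not tested.

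The promoters of the falling heat shock genes were searched for a pair of inverted heat shock units, GAANNTTC or TTCNNGAA, each its own reverse complement, in the same window. The pair was in 7 of the 14 falling members with a promoter in the table (50%), against 10.1% of the tested genes and 13.2% of all promoters, and it was not in the window of Hspa1a. All were picked as heat shock genes, and the share among members that did not fall was not counted. The values therefore do not set the falling members apart from the rest of the list. The upstream bases of 3 falling members that hold it are printed with the matches in capitals; overlapping matches run together. In Hsph1 (chr12:10427118-10427367, plus strand) matches start at -105, -36 and -31 from the gene start, in Hspb1 (chr12:26432302-26432551, minus strand) at -129 and -109 and in Dnajb1 (chr19:41431142-41431391, minus strand) at -11.
Hsph1: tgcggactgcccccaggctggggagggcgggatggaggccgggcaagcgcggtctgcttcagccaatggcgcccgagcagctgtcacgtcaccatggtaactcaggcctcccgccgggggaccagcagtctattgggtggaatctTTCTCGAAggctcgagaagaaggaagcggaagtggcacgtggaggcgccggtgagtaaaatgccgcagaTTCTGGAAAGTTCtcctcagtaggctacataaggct
Hspb1: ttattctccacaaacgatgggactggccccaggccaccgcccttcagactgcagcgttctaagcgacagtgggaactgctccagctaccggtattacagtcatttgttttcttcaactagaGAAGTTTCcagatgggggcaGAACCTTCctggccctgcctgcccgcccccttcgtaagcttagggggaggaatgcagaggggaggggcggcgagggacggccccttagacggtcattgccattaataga
Dnajb1: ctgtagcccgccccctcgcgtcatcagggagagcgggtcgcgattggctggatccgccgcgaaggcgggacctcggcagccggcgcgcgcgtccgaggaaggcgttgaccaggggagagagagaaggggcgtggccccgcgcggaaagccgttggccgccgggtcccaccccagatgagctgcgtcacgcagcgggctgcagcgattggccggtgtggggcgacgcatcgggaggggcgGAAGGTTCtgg

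Few genes of chaperoning and quality control in the endoplasmic reticulum were called. 1 of 26 rose and 1 fell, and 4 rose and 0 fell without D3T 5, and 0 fell also without control 1, control 4, control 5, D3T 1, D3T 2 or D3T 3. The falling gene was Edem1, which directs misfolded proteins to degradation (-0.66, adjusted p = 0.0398, not called in 13 of 20 other settings). P4hb, protein disulfide isomerase, rose by 0.52 (adjusted p = 0.0162); Sdf2l1 differed by 0.94 (adjusted p = 0.0943) with D3T 5 and by 1.17 (adjusted p = 0.0377) without it. Of 39 proteasome genes, a group often listed among Nrf2 targets, 2 rose and 0 fell in both fits: Psmb10, an immunoproteasome subunit, by 0.98 and the assembly factor Pomp by 0.40; 1 rose without control 2 or control 4. At an unadjusted p under 0.05, 4 proteasome genes were higher and 3 lower.

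**Figure D3:**
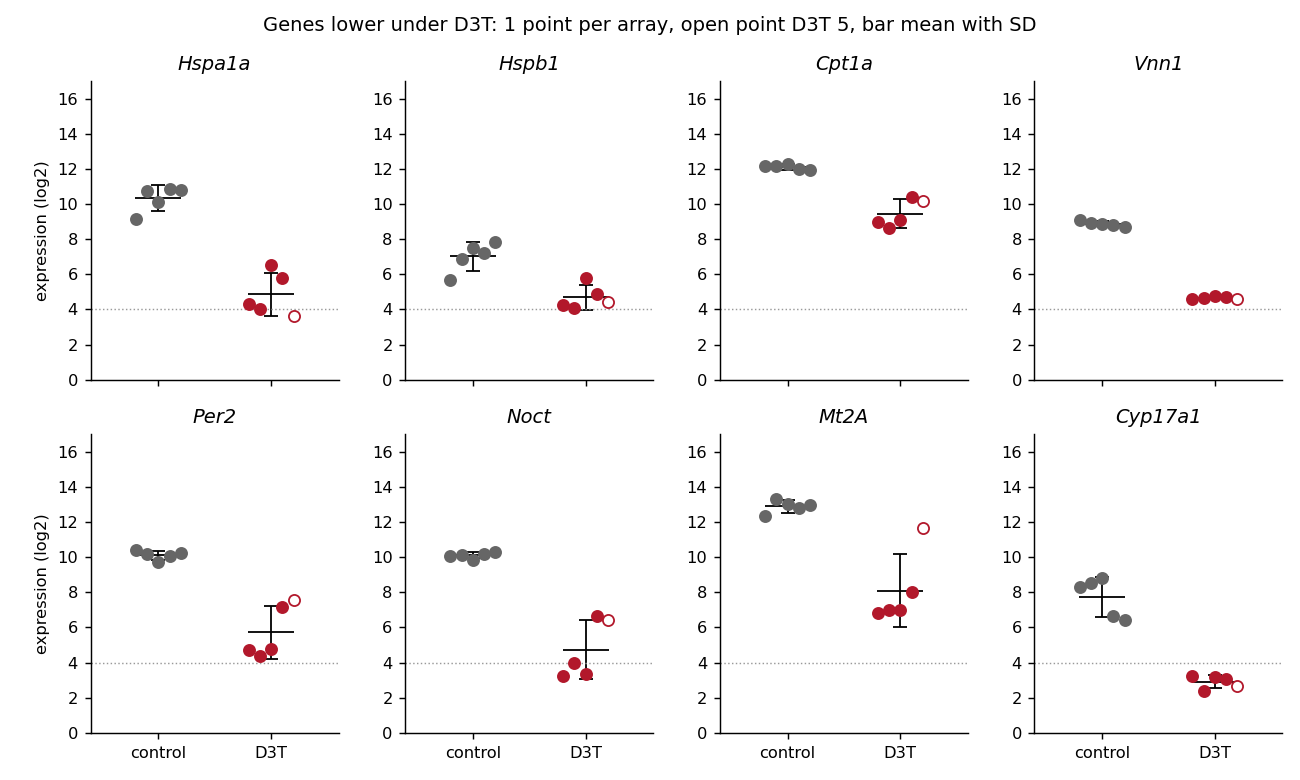
Log2 expression (vertical axis) of 8 genes that fell, 1 point per array, for the 5 control and the 5 D3T arrays; the open point is D3T 5, the bar is the mean with its SD and the dotted line marks the filter value of 4. D3T 5 is the lowest D3T array in Hspa1a (3.65), sits with its group in Vnn1 (4.58) and is the highest in Per2 (7.55) and Mt2A (11.68).

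Clock genes and their outputs included some of the largest decreases. 6 of 20 fell and 2 rose in both fits (5 and 1 without D3T 3), with a median of -0.56. Per2, a repressor of the core loop, stood at 10.39, 10.19, 9.72, 10.07 and 10.23 in the controls and 4.73, 4.37, 4.79, 7.19 and 7.55 under D3T. It fell by 4.39 (SE 0.51, adjusted p = 2.81e-05), with D3T 4 and D3T 5 nearer the controls than D3T 1 to 3. Noct, a phosphatase of NADP(H) whose transcript cycles strongly in liver, read 10.07, 10.14, 9.85, 10.19 and 10.30 in the controls and 3.21, 3.99, 3.37, 6.67 and 6.44 under D3T. The gene fell by 5.37 (SE 0.64, adjusted p = 3.32e-05), the same 2 arrays again being the highest of their group. Usp2, a deubiquitinase under clock control, fell by 3.29, Per1 by 1.61, Hlf by 1.26 and Bhlhe40 by 1.97 (adjusted p = 0.0313, not called in 8 of 20 other settings). The activator Npas2 and the repressor Nr1d1 rose by 1.47 and 1.35, Npas2 from 2.93, below the filter value. The hour at which each liver was taken is not in the labels, and its part in these values was not tested. Bmal1 had no tested probe set of its own.

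Metallothioneins, the small proteins that bind zinc and copper, fell in the first 4 D3T arrays and much less in D3T 5. Mt2A read 12.37, 13.34, 13.01, 12.79 and 12.97 in the controls and 6.83, 6.99, 6.97, 8.02 and 11.68 under D3T. It fell by 4.79 (SE 0.74, adjusted p = 0.000349) with D3T 5 and by 5.69 without it. Mt1 stood at 8.85, 9.73, 10.52, 8.86 and 9.74 and 5.02, 6.54, 6.0, 5.91 and 8.48 and fell by 3.15 (adjusted p = 0.00114). Slc39a4, a zinc importer, moved the other way and rose by 2.26 (SE 0.29, adjusted p = 5.92e-05), from 6.54 ± 0.15 to 8.80 ± 0.79. Of all 27 genes of metal, iron and heme handling 3 rose and 3 fell (3 and 4 without D3T 5). Fech, ferrochelatase, which closes heme synthesis, rose by 0.93, and the iron exporter Slc40a1 fell by 0.72. Both metallothionein promoters hold the metal response element core, TGCACNC or TGCGCNC on either strand, repeatedly: 6 matches in Mt1 (chr19:10832976-10833225, minus strand) and 4 in Mt2A (chr19:10838709-10838958, minus strand), in capitals. A single such match is common, with 32.0% of tested genes and 21.2% of all promoters holding at least 1.
Mt1: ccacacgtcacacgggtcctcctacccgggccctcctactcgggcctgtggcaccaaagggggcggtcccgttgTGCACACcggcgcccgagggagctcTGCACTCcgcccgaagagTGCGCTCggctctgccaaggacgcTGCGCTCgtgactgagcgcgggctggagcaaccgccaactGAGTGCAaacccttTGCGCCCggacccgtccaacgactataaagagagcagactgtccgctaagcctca
Mt2A: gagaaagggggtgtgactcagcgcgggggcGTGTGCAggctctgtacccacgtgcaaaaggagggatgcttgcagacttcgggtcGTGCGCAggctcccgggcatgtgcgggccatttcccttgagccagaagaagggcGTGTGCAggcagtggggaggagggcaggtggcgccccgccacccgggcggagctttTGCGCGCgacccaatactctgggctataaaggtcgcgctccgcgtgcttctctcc

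Steroid and growth hormone related genes held 2 increases and 4 decreases among 22 (2 and 5 without D3T 5), with 1 increase without control 1, control 2, control 4, D3T 2 or D3T 3. Over all genes 5.6% rose and 7.45% fell. Cyp17a1, the steroid hydroxylase and lyase, stood at 8.30, 8.50, 8.84, 6.63 and 6.42 in the controls and 3.25, 2.37, 3.18, 3.07 and 2.67 under D3T. It fell by 4.83 (SE 0.42, adjusted p = 1.55e-06) to values below the filter value in all D3T arrays, so the size of the difference depends on the background. The sulfotransferase Sult1c3 fell by 4.09 (adjusted p = 0.000870), and Tsc22d3, a glucocorticoid-induced gene also known as Gilz, by 1.84 (SE 0.18, adjusted p = 3.52e-06). Hsd11b1, which regenerates active glucocorticoid, rose by 1.84 (adjusted p = 0.00365), at 12.25, 12.60, 12.48, 12.21 and 10.26 in D3T 1 to 5 against 10.46, 9.64, 10.19, 9.86 and 10.48 in the controls; D3T 5 lay inside the control range. Igf1 differed by 0.19 (-0.18 to 0.56), not called.

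In glucose handling 3 of 20 rose and 4 fell (3 and 3 without D3T 5). 1 rose and 2 fell without control 2, 1 rose without control 4, and 2 fell without control 5, D3T 2 or D3T 3. Gys2, liver glycogen synthase, fell by 1.45 (adjusted p = 0.00183) and the glycogen-targeting subunit Ppp1r3b by 1.07, while Pygl, glycogen phosphorylase, rose by 0.83 (SE 0.10, adjusted p = 3.36e-05) and the glucokinase regulator Gckr by 1.23. Among growth arrest and early response genes 2 of 16 rose and 4 fell in both fits. Jun, a subunit of AP-1, read 10.47, 11.47, 10.71, 10.49 and 10.47 in the controls and 9.07, 8.25, 8.49, 8.15 and 8.45 under D3T. It fell by 2.24 (SE 0.28, adjusted p = 4.90e-05) with no overlap, and Gadd45a, a stress-induced growth arrest gene, fell by 1.26 (adjusted p = 0.00167). The p53 targets Bbc3 and Sesn1 rose by 1.06 and 1.14. Of 26 acute phase and complement genes 1 rose and 1 fell (1 and 2 without D3T 5), C-reactive protein (Crp) by 0.38 and Tat by -1.06. Without control 3, 4 rose and 2 fell, without D3T 4, 2 rose, and without any other single array than D3T 5, 0 rose. Of 46 respiratory chain genes 2 rose and 0 fell in both fits, the ATP synthase genes Atp5po (0.36) and Atp5f1c (0.35); 1 rose without control 2, control 4 or D3T 3, and 1 fell without D3T 2.

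Several of the largest changes lay outside the lists. Fabp5, a fatty acid carrier, rose by 3.05 (SE 0.37, adjusted p = 4.25e-05), Efna1, an ephrin ligand, by 2.94 (adjusted p = 4.25e-05), and Rnf125, a ubiquitin ligase, by 2.68 (adjusted p = 9.40e-05), all without overlap. Isyna1, inositol phosphate synthase, rose by 2.52 (adjusted p = 0.0108) and stands beside the fall of Miox as the other inositol gene named here; it read 5.76, 5.28, 5.72, 4.91 and 5.64 in the controls and 8.37, 8.36, 8.75, 8.78 and 5.66 under D3T, D3T 5 falling inside the control range. Spsb4, a substrate adaptor of a ubiquitin ligase, fell by 3.99 (adjusted p = 1.62e-05) and the membrane hydrolase Aig1 by 3.92 (adjusted p = 1.62e-05), the latter to a mean of 3.71.

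Genes that mark the liver's zones and other cell types were read beside these results. Of 13 pericentral markers 6 fell and 0 rose in both fits (median -0.51), among them Glul, glutamine synthetase of the cells around the central vein (-1.07, adjusted p = 0.00223), Axin2, a Wnt target (-1.66, adjusted p = 0.00130), Lect2 (-1.21) and Oat (-1.12). Of 14 periportal markers 3 rose and 1 fell (2 and 2 without D3T 5). Only Tat was called among the 14 hepatocyte markers (Tat and Hnf4a without D3T 5), and without control 3, 4 of them rose.

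No Kupffer, endothelial or lymphocyte marker was called by limma (0 of 17, 9 and 8), and at an unadjusted p under 0.05 these lists held 0, 0 and 0 higher and 1, 0 and 2 lower genes. Without D3T 1, 1 Kupffer marker fell, and without control 5 or D3T 3, 2 lymphocyte markers fell. The summed level of the lymphocyte and class II list (log2) was 12.02 to 12.22 in the D3T arrays and 12.32 to 12.62 in the controls, without overlap. Its median difference was -0.44. The summed Kupffer and endothelial levels overlapped between the diets. These sums were not tested. Of 18 stellate markers Col4a2 rose (0.57; not called without control 5, D3T 3 or D3T 4) and Acta2, smooth muscle actin, fell (-0.88). Of 5 cholangiocyte markers Prom1 fell (-2.11, adjusted p = 0.0247, not called in 8 of 20 other settings, among them without control 2, 4 or 5 or D3T 1, 2 or 3). Of 4 tested blood cell markers 2 rose and 0 fell (1 and 0 without D3T 5), and both that rose were erythroid. Alas2, the erythroid aminolevulinate synthase, rose by 1.93 (limma adjusted p = 0.00405). Hbb rose by 1.0 (limma adjusted p = 0.0212, 0.0501 without D3T 5, and not called without control 1, control 2 or D3T 2). The median of the 4 against control was 0.64 under D3T, 0.66 under OLT and 0.51 under BNF. The part of zone or cell makeup in the other results was not tested.

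Against BNF, D3T was higher in 845 genes (10.8%) and lower in 531 (6.78%), and in 772 and 513 without D3T 5. Of the cell type lists, 12 of 17 Kupffer and 6 of 8 lymphocyte and class II markers were below BNF. The medians of these 2 lists against control were -0.17 and -0.44 under D3T and 0.94 and 1.52 under BNF. The part of cell makeup in this comparison was not tested. Of the genes called against control, 340 that rose were also above BNF and 261 that fell were below it. Both comparisons use the same D3T arrays, so the counts are not independent. The genes most above BNF were Spink1l (5.23, adjusted p = 1.68e-05), Dao (4.68), Cryl1 (5.20), Aspg, an asparaginase (4.55), and Akr1b8 (7.03, adjusted p = 0.00443). In Spink1l and Aspg the gap lay on the BNF side: against control they differed by 0.15 and 0.20 under D3T and by -5.09 and -4.36 under BNF. Dao was 1.91 above control under D3T, less than its gap of 4.68 to BNF. Most below BNF were the receptor's own targets Cyp1b1 (-10.55) and Cyp1a1 (-8.39), the RNA-binding gene Rbm24 (-7.39) and the class II genes RT1-Bb (-5.53) and RT1-Ba (-5.50). Over the other settings RT1-Bb ranged from -6.54 to -2.81 and RT1-Ba from -6.35 to -2.58, and both stayed called.

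Most glutathione transferases were above BNF as well as above control. 13 of 17 glutathione transferases were above BNF and 0 below, whereas Nqo1, a target of both receptor and Nrf2, was not called between them (-0.81, adjusted p = 0.168; 3.22 under BNF). 8 of 29 heat shock genes were below BNF, Hspa1a by -4.81 (adjusted p = 1.51e-05). Of 29 genes of fatty acid synthesis 18 were above BNF and 2 below. Fasn differed from control by 1.87 under D3T and -1.41 under BNF, Scd by 2.30 and -1.27, and Acaca by 1.31 and -1.13; the tests of D3T minus BNF gave 3.28, 3.57 and 2.44 (adjusted p = 6.16e-06, 0.000351 and 1.71e-06). Gadd45a and Abcg5 also differed in sign between the diets, at -1.26 and -2.49 under D3T and 1.01 and 2.21 under BNF (D3T minus BNF -2.27 and -4.70, adjusted p = 3.28e-06 and 3.42e-05).

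OLT is D3T substituted by methyl and pyrazinyl groups on the ring, but it was fed at 500 mg per kg rather than 600, so its values are only set beside those of D3T, with the same controls behind both. Between the diets as fed, limma called 0 genes (0%, with 922 at an unadjusted p under 0.05). The count was 153 (1.95%) without D3T 5 and 379 (4.84%) without D3T 5 and OLT 1. Both arrays were singled out for their likeness to the other diet, so leaving them out favours a higher count. The 153 and 379 genes are therefore no evidence that the diets differ. Akr1b8 differed from control by 8.06 under D3T and 2.84 under OLT, Gstp1 by 6.76 and 3.26, Akr7a3 by 4.36 and 2.57, and Mt2A by -4.79 and -1.99. For Hspa1a the values were -5.46 and -4.99, for Cyp17a1 -4.83 and -4.88, for Vnn1 -4.22 and -3.66, and for Jun -2.24 and -2.17.

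**Figure D4:**
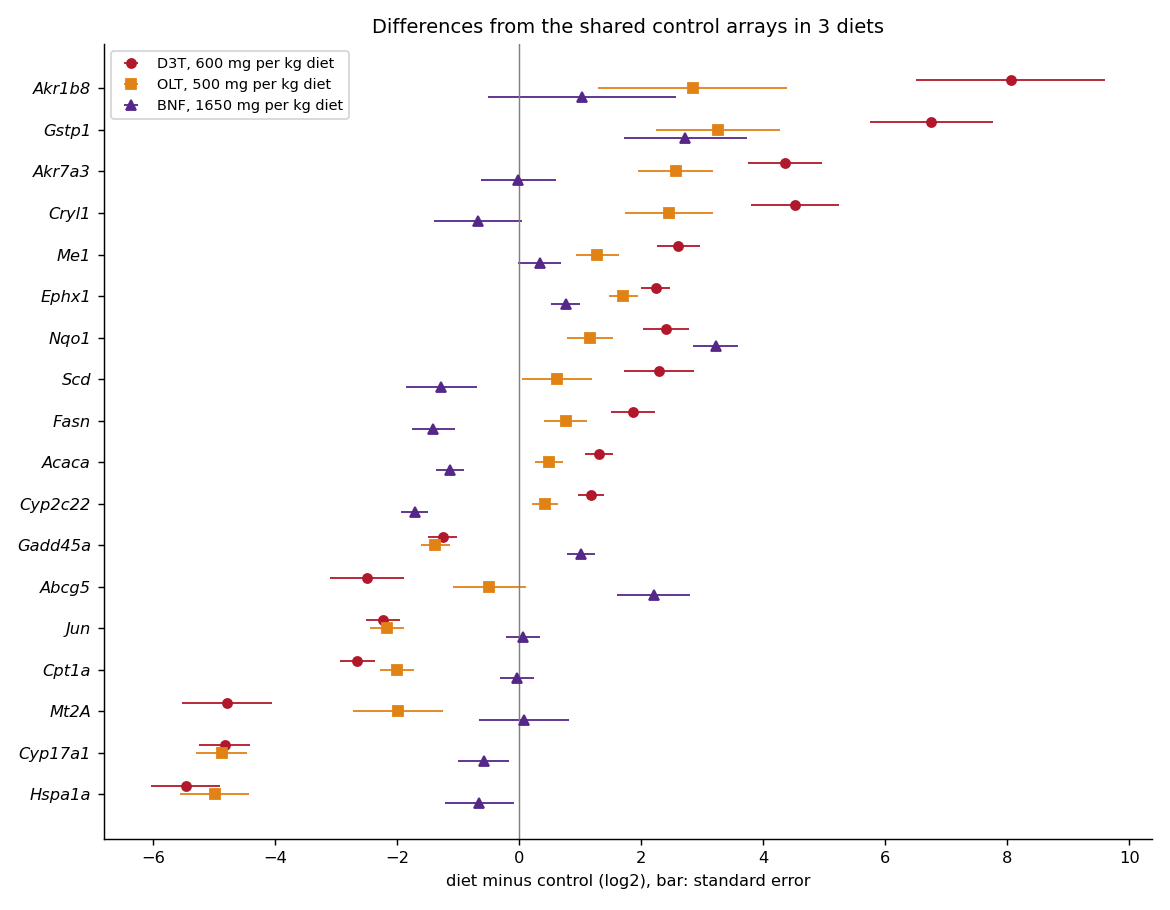
Difference from the same 5 control arrays (log2, horizontal axis) for 18 genes in rats fed D3T (red circles), OLT (orange squares) or BNF (purple triangles); bars are standard errors from the fit and the doses differ. Scd, Fasn, Acaca and Cyp2c22 lie above 0 under D3T and below 0 under BNF, and Gadd45a and Abcg5 the reverse.

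The array labelled D3T 5 did not simply show a smaller version of the other 4. On a scale where 0 is the control mean and 1 the mean of D3T 1 to 4, its median position over the 374 genes called without it at 2-fold or more was 0.62, with quartiles of 0.39 and 0.92. Heat shock genes lay at a median of 1.20 (8 genes), that is at or past the level of the other arrays, fatty acid oxidation genes at 0.69 (9), glutathione transferases at 0.54 (7), NADPH genes at 0.51 (4) and metal genes at 0.25 (4). Vnn1, Cyp17a1 and Jun stood at 1.02, 1.06 and 1.02, Akr7a3 at 0.45, Gstp1 at 0.39, Mt2A at 0.21 and Akr1b8 at 0.18. The genes were chosen through D3T 1 to 4, which also set the value 1, so an array left out tends to fall below 1. No other array was placed on such a scale. These positions describe 1 array and carry no test, and whether it holds a D3T liver was not tested.

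**Figure D5:**
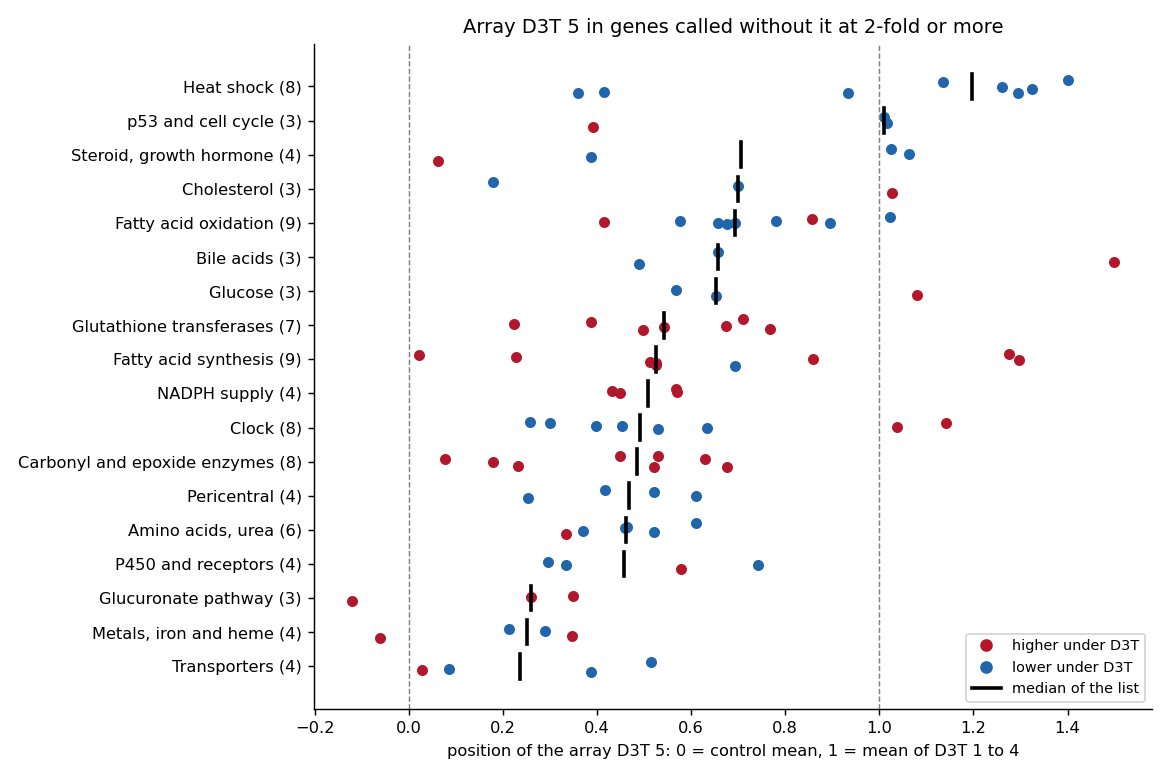
Position of the array labelled D3T 5 (horizontal axis; 0 is the control mean and 1 the mean of D3T 1 to 4) for genes called without it at 2-fold or more, in lists with at least 3 such genes (rows, number in parentheses); red genes were higher and blue genes lower under D3T, and black bars are medians. Heat shock genes centre at 1.20 and metal genes at 0.25.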

How the data were processed

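Liver RNA from 20 rats was hybridised to biotin-labelled, 1-colour Affymetrix arrays, 1 for each rat. The deposited log2 values were made by the authors with GCRMA, a method that takes off background by probe sequence, quantile-normalizes the arrays and combines the probes of a set, per the submitters' processing notes; its version is not given in the sources used here, and the table holds no detection calls or scan dates. The number of arrays, not a read depth, limits precision. The values were used as given. Names come from the platform's annotation, updated by gene ID; of the probe sets, 20826 had 1 gene (20758 updated), 436 several and 9780 none. Only those with 1 gene were used for genes. Of the 1699 genes with several kept probe sets, the one of highest average level stands for the gene.

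limma 3.58.1 in R 4.3.3 (lmFit, eBayes with an intensity trend) fitted 1 mean for each diet to the 20 arrays; tests are two-sided. A call is a Benjamini-Hochberg adjusted p under 0.05 over the 12947 kept probe sets, and SE and 95% intervals use limma's shrunken variances. Nothing in the labels ties rats of one number together. Members and lists were chosen with earlier results of these data known, and lists share genes. Named genes are the 4 given markers, the 12 largest increases and decreases called with and without D3T 5, up to 4 called members per list, preset anchors, the 5 genes most above and below BNF, and the genes with a value far from its group; other list members were picked after their values were seen. Promoters are RefSeq GRCr8, the first entry per gene ID. The fit was tested on simulated arrays with the same spread in all diets, which held no array like D3T 5. Alternatives were the scaling, filter, prior, arrays fitted, replicate block, averaging over probe sets of a gene, each array left out.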

Additional observations from a re-analysis of the deposited data

Results flagged for a closer look

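In 242 groups of 5 arrays (the control and D3T values of the named genes), 18 held a value far from the other 4 by Dixon's test at the 95% level. Chance alone marks about 1 group in 20, and 14 of the 18 values belonged to the array D3T 5. In that array the values below its group were Akr7a3 at 11.35 (nearest other D3T array 13.82), Akr1b8 at 5.77 (13.42), Gstp1 at 10.30 (14.79), Cryl1 at 6.73 (10.44), Me1 at 9.84 (11.30), Isyna1 at 5.66 (8.36), Gsta3 at 10.90 (12.04), Srxn1 at 6.25 (8.79), Mgst2 at 10.68 (11.80), Hsd11b1 at 10.26 (12.21), Abcc4 at 3.86 (5.74) and Txn1 at 13.39 (13.59). Above its group were Mt2A at 11.68 (nearest 8.02) and Cyp1a2 at 14.51 (13.59). The other 4 values were in control arrays: Fabp5 at 6.80 and Jun at 11.47 in control 2, and Uroc1 at 11.09 and Acta2 at 8.62 in control 3. Without D3T 5 all called members of these 14 stayed called in the same direction, while Srxn1 and Cyp1a2 were not called in either fit and rose or fell only where OLT 1 was left out too.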

How the results depend on the processing

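Among single-gene values under the alternatives, 2465 kept their direction and side of the threshold, 133 lost the call, 7 gained it and 11 changed sign. Centring each array on its median gave 896 rising and 466 falling genes, with 434 of the 439 and 436 of the 584 first calls kept, and 902 rising genes without D3T 5. Quantile normalization gave 689 rising genes (711 without D3T 5), and no filter on low values gave 365 falling genes. With 1 array left out in turn, 299 to 471 genes rose and 373 to 622 fell; without D3T 5 as well, 305 to 475 rose and 375 to 612 fell, the lowest of these without D3T 3. Against BNF, 616 to 854 were higher and 357 to 621 lower. Against control the sign changed for 3 genes that no alternative called: Cyp1a1 (0.086 centred; -0.84 to 0.27 with 1 array left out), Hsf1 (0.045 centred) and Abcc2 (-0.0029 to 0.14 with 1 array left out; -0.00029 without D3T 5 and OLT 1). The cause of these shifts was not tested. Beside the genes so described above, Crp lost its call in 10 of 20 alternatives, Ctsc in 8, Elovl2, Scap, Pmvk and Slco1a4 in 5, Hbb and Col4a2 in 4, Atp5po in 3, Gckr and Psmb10 in 2 (without control 2 or control 4), Sqstm1 (without control 2), Sesn1 (of 19, only the compared arrays fitted) and Ppp1r3b (probe sets averaged) in 1 each. With the replicate number as a block, 454 genes rose and 615 fell against control, 514 and 484 without D3T 5, and 824 were above and 564 below BNF; deviations of same-numbered D3T and control arrays correlated at 0.020 to 0.22, so the numbers were not taken as pairs. Group means under 4, the filter's level, cannot be told from background here and limit, for example, Psat1, Pnpla3, Abcc4 and Npas2 in controls and Abcg5, Cyp17a1 and Aig1 under D3T.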
